A study of Mus musculus with 6 samples.

Results

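The snoRNA host lncRNAs examined here are Gas5, Snhg1, Snhg3, Snhg6, Snhg8 and Snhg12, taken as the noncoding RefSeq entries that carry these 6 gene symbols. The deposited table lists 27794 RefSeq transcripts, of which 2110 are noncoding, and it lists 1 transcript for each of the 6 genes. RNA came from primary wildtype mouse embryonic fibroblasts (MEFs) of C57BL/6x129 background, expanded for 4 passages, that were left untreated or given TNFα, a cytokine that activates NF-κB, at 20 ng/ml for 1.5, 6 or 24 hr. The 4 RNA libraries share strain, medium and passage and differ by the treatment, with 1 library per time, and H3K4me3, a histone mark of active promoters, was profiled in untreated MEFs with 1 ChIP library and 1 input library. MEFs from whole embryos are a mixed population of cultured cells.

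A snoRNA host gene is read out in 2 ways from a single transcript. Small nucleolar RNAs (snoRNAs) are cut out of its introns and guide chemical modification of ribosomal and spliceosomal RNA, C/D box snoRNAs for 2′-O-methylation and H/ACA box snoRNAs for pseudouridylation, and the exons are spliced into a separate RNA. In the lncRNA hosts this spliced RNA encodes no long protein. Several hosts begin at a terminal oligopyrimidine tract, a run of C and T at the start that is also found at ribosomal protein genes, and spliced hosts such as Gas5 and Snhg1 are known targets of nonsense-mediated decay. Gas5 was first described in growth-arrested cells, and its RNA can bind the glucocorticoid receptor.

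The starts of 5 of the 6 hosts could be placed on the mm9 genome, by matching RefSeq promoter windows (GRCm38.p6) that each occurred once in mm9. The sequences below are shown because they carry what these starts share. Each runs 5′ to 3′ from 60 bases before the start and covers 50 bases from the start onward. Capitals mark the letters TATA where present and the longest C/T run that reaches within 5 bases of the start. Snhg6 had no window and was not placed.
Gas5, first window (chr1:162964672-162964781, plus strand): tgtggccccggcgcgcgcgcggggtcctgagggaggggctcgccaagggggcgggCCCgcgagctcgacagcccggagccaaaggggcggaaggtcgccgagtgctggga
Gas5, second window (chr1:162965237-162965346, plus strand): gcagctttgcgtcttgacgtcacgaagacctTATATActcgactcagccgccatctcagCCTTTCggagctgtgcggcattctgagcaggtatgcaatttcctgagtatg
Snhg8 (chr3:123211205-123211314, minus strand): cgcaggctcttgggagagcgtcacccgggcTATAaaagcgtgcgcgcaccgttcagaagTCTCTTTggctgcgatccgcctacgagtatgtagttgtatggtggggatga
Snhg12 (chr4:131864533-131864642, plus strand): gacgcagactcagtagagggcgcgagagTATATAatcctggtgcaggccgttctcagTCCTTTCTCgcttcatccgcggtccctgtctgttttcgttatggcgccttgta
Snhg1 (chr19:8797917-8798026, plus strand): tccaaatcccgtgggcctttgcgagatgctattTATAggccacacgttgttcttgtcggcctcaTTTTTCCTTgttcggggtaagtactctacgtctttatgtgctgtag
Snhg3 (chr4:131909552-131909661, minus strand): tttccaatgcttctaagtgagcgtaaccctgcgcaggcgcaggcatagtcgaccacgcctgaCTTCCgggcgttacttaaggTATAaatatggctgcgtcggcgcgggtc

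The letters TATA, on the strand that reads as the RNA and between 40 and 15 bases before the start, were present in 4 of 5 placed hosts. They stood 29 bases before the start in the second Gas5 window, 30 in Snhg8, 32 in Snhg12 and 27 in Snhg1. Of 32851 RefSeq promoter windows, 5.91% had them there. In Snhg3 the letters TATA stood 22 bases after the annotated start. A run of 5 or more C or T within 5 bases of the start was found in 5 of 5 placed hosts and in 32.9% of all windows. The second Gas5 window had a run of 6, and Snhg8 had 7, Snhg12 had 9, Snhg1 had 9 and Snhg3 had 5. The runs of Gas5, Snhg8 and Snhg12 covered the start itself, while those of Snhg1 and Snhg3 began 4 and 2 bases after it. The first Gas5 window had neither, so counted by window 4 of 6 had TATA and 5 of 6 had the C/T run. On the same strand, which reads as the RNA, a κB motif, the binding sequence of NF-κB, was found in no host window and in 5.89% of all windows. CACGTG, the E-box bound by Myc, was found in no host window and in 7.15%. TATA, the C/T run and the κB motif were searched on that strand alone, so κB sites on the other strand were not counted. The κB motif and CACGTG, which reads the same on both strands, were searched anywhere in the window. The motifs were chosen after the sequences were seen, and a match describes letters in a window of 300 bases.

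In untreated cells, 5 of 5 placed starts lay inside an H3K4me3 peak. Coding genes also started inside the peaks of Gas5, Snhg1 and Snhg3. They were Zbtb37 (248 bases from the first Gas5 start), Slc3a2 (118 bases from Snhg1) and Rcc1 (81 bases from Snhg3). At these hosts the mark cannot be assigned to the host or to the coding gene. The Gas5 peak (chr1:162963089-162969549) held 2664 tags at 52.06-fold enrichment. The Snhg1 peak (chr19:8795337-8801832) held 2248 tags at 45.68-fold. The Snhg3 peak (chr4:131906614-131910148) held 1305 tags at 71.25-fold. These compare with a median over all 11157 peaks of 1049 tags and 45.45-fold. The Snhg8 peak (chr3:123208794-123212663) held 1736 tags at 39.01-fold, and the Snhg12 peak (chr4:131864002-131867235) held 1503 tags at 98.16-fold, above 94.0% of peaks. A peak within 1 kb of the start was also found for 88.9% of 5927 placed coding genes and 52.8% of 180 placed noncoding genes that passed the minimum level, so a peak at the start was common among expressed genes. The Gas5 and Snhg1 peaks reached past the ends of both annotated genes and covered 9 and 8 snoRNAs.

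**Figure D1:**
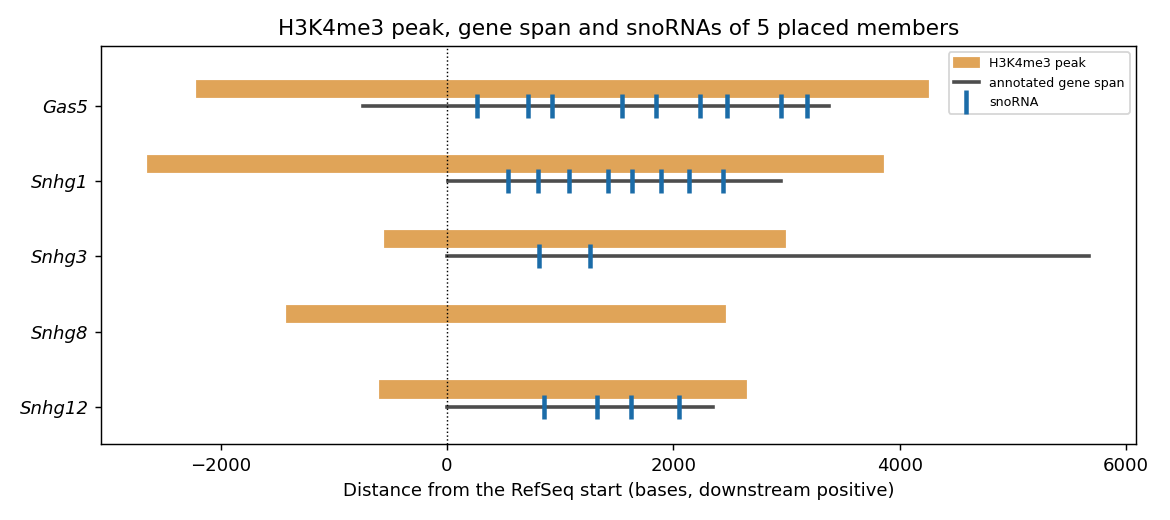
H3K4me3 peaks (orange), annotated mm9 gene spans (grey) and snoRNAs (blue ticks) of the 5 placed hosts, in bases from the RefSeq start with downstream to the right. Each start lies inside a peak, and the peaks of Gas5, Snhg1 and Snhg3 also hold the start of a coding gene, not drawn. Snhg8 has no gene span in the mm9 annotation used, and the Snhg3 gene extends beyond its peak.

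Levels are given in the units of the deposited RPKM column, which are per transcript length but carry a constant that is not stated, so they rank transcripts and give ratios but are not RPKM. Each library has 2 columns, R1 and R2, whose contents are not stated. They were averaged and were not treated as replicates. With 1 library per time there was no replicate error, no test was possible, and a difference between times cannot be told apart from a difference between libraries. In bulk RNA, fewer cells of a type and less RNA per cell cannot be told apart either. Whole libraries were shifted: over 8203 transcripts with a mean of at least 100 units (tested transcripts), the middle log2 ratio against untreated cells came to 0.41 (1.5 hr), -0.73 (6 hr) and 0.07 (24 hr). The log2 ratios of the hosts are therefore given as deposited and after scaling the libraries to a median of ratios (factors of 1.34, 0.570 and 1.05), and those of other genes on the scale named beside them. The 3 comparisons share the untreated library. TNFα target genes checked the labels of treated against untreated libraries, and 6 of 6 (Nfkbia, Tnfaip3, Relb, Ccl2, Cxcl10 and Sod2) were at least 2-fold higher at each time. They do not check the order of the 3 later times. Of 10 fibroblast markers 9 passed the minimum, with summed levels of 43327 to 90923 units. Epcam was at 0 in every library and the endothelial markers summed to at most 5.04. Of 5 leukocyte markers, Cd68 and Csf1r passed, and the 5 summed to 980 units untreated, then 1279 (1.5 hr), 335 (6 hr) and 532 (24 hr). The part of these cells in the results was not tested.

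All 6 hosts passed the minimum level. Averaged over the libraries, Snhg12 was the highest (706 units, above 78.9% of tested transcripts), then Snhg6 (557), Snhg3 (420), Snhg1 (386), Snhg8 (377) and Gas5 (264). Snhg1 and Snhg8 stood next to each other, closer than the R1 and R2 columns of Snhg8. In untreated cells the order was different, with Snhg12 at 691.4, Gas5 at 275.5 and Snhg8 at 266.0, and Snhg3 lowest at 112.2.

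Snhg3, Snhg6 and Snhg1 were higher than untreated in both columns at 1.5 and 24 hr by more than 2-fold. Snhg3, which carries the H/ACA snoRNAs Snora73a and Snora73b, was at 112.2 units untreated, then 568.5 (1.5 hr), 256.2 (6 hr) and 741.6 (24 hr). All later libraries were above the untreated one, and the 24 hr library was the highest. The log2 ratios were 2.34, 1.19 and 2.72 as deposited, and 1.92, 2.0 and 2.65 after scaling, and the R1 and R2 ratios lay within 0.08 of each other at each time. Its ratios exceeded those of 97.8%, 98.5% and 99.5% of tested transcripts.

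Snhg6, host of the C/D box snoRNA Snord87, was at 175.4 units untreated, then 1085.8 (1.5 hr), 312.6 (6 hr) and 652.6 (24 hr). It had the highest ratio of the 6 hosts at 1.5 hr. The log2 ratios were 2.63, 0.83 and 1.90 as deposited, and 2.21, 1.65 and 1.82 after scaling. At 6 hr the deposited value fell short of 2-fold and the scaled one passed it.

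Snhg1, whose introns hold 8 annotated C/D box snoRNAs, was at 181.0 units untreated, then 720.9 (1.5 hr), 177.9 (6 hr) and 466.0 (24 hr). The 6 hr value was the same as untreated to within the difference of the columns, while the other later values were well above it. The log2 ratios were 1.99, -0.02 and 1.36 as deposited, and 1.57, 0.79 and 1.29 after scaling, so the 6 hr sign turned with the scaling.

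Snhg8, host of Snora24, was at 266.0 units untreated, then 695.1 (1.5 hr), 125.8 (6 hr) and 421.7 (24 hr). The R2 column was between 1.62 and 2.96 times the R1 column, the widest gap of the 6 hosts. The log2 ratios were 1.39, -1.08 and 0.67 as deposited, and 0.97, -0.27 and 0.59 after scaling. The 6 hr value passed 2-fold lower in R2 (-1.35) but not in R1 (-0.49), and none of the scaled ratios reached 2-fold.

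Gas5, whose introns hold 9 annotated C/D box snoRNAs, was at 275.5 units untreated, then 394.7 (1.5 hr), 150.4 (6 hr) and 233.7 (24 hr). Its log2 ratios were 0.52, -0.87 and -0.24 as deposited and 0.10, -0.06 and -0.31 after scaling. Each lay between the 37.6 and 53.6 percentiles of tested transcripts, near the middle of the table. Snhg12, which carries 4 snoRNAs of both kinds, was at 691.4 units untreated, then 1124.3 (1.5 hr), 409.9 (6 hr) and 599.4 (24 hr), with log2 ratios of 0.70, -0.75 and -0.21 as deposited and 0.28, 0.06 and -0.28 after scaling. Neither Gas5 nor Snhg12 reached 2-fold at any time under either scale.

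**Figure D2:**
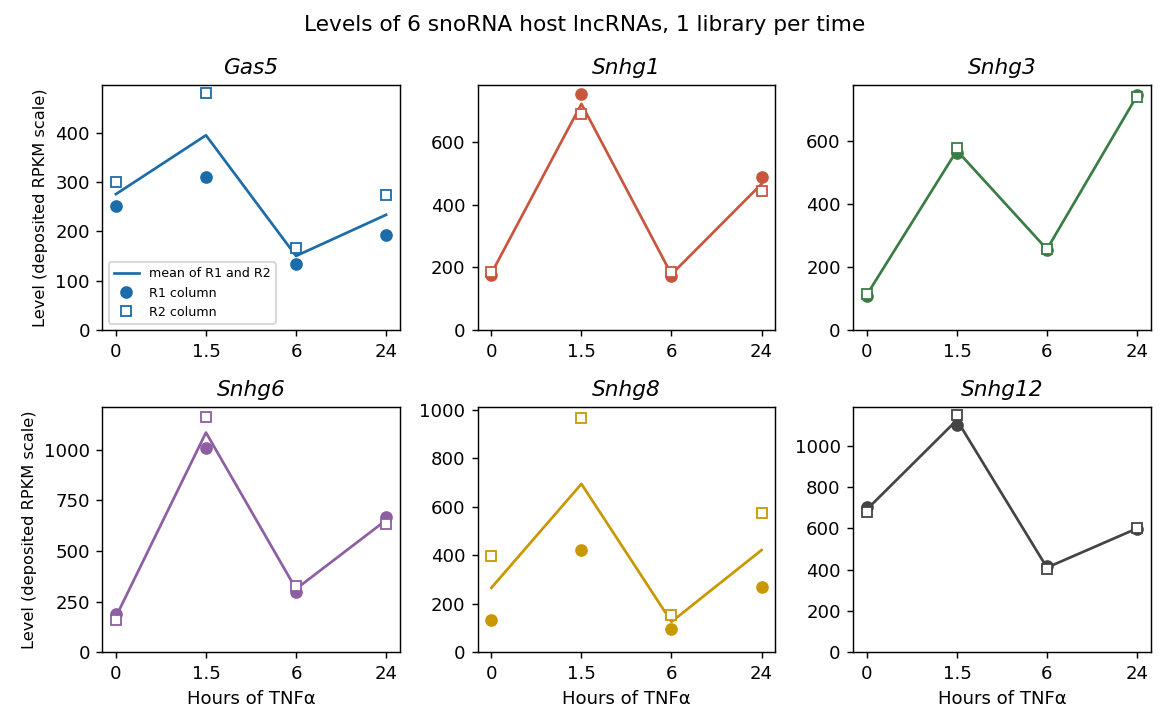
Level of each host (deposited RPKM scale) in the untreated library and after 1.5, 6 and 24 hr of TNFα, with R1 as filled circles, R2 as open squares and their mean as a line. The vertical axis differs between panels and the times are evenly spaced, and Snhg8 shows the widest gap between columns.

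Counted together, 4 of 6 hosts were at least 2-fold higher at 1.5 hr, where 29.2% of tested transcripts were, and none was 2-fold lower, where 8.79% were. At 6 hr 1 host (Snhg3) was higher and 1 (Snhg8) lower, where 1.85% and 30.3% of tested transcripts were. At 24 hr 3 were higher and none lower, where 16.7% and 13.8% were. After scaling to a median of ratios, 3 hosts were higher and none lower at 1.5 hr (16.0% and 18.1% of tested transcripts), 2 were higher and none lower at 6 hr (8.34% and 2.34%), and 3 were higher and none lower at 24 hr (14.9% and 15.7%). The median log2 ratio of the hosts was 1.69, -0.39 and 1.01 as deposited, against 0.41, -0.73 and 0.07 over all tested transcripts and -0.07, -0.59 and -0.32 over the 327 noncoding ones. After scaling it was 1.27, 0.42 and 0.94. The median stands for widely spread values, which at 24 hr after scaling ran from -0.31 to 2.65. Of the 6, 3 were at or above 1.29 and 3 at or below 0.59.

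**Figure D3:**
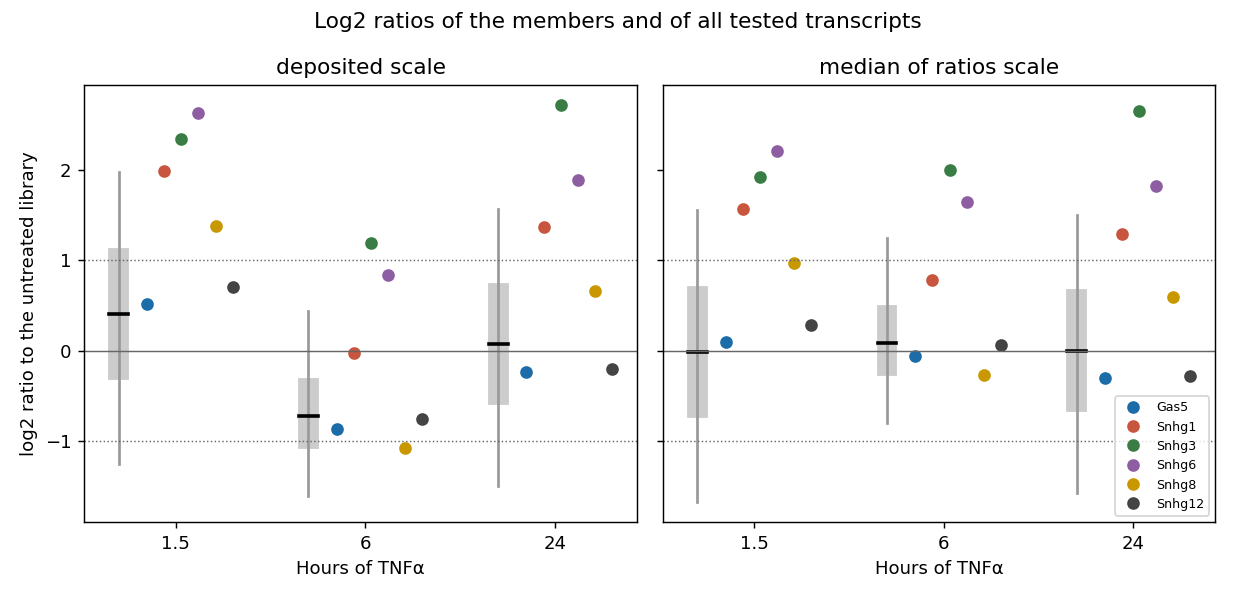
Log2 ratio of each host to the untreated library as deposited (left) and after median of ratios scaling (right), beside all 8203 tested transcripts, for which a black line gives the median, a grey box the middle 50% and a grey line the range from the 5th to the 95th percentile. Dotted lines mark 2-fold. Snhg3 and Snhg6 lie above the 95th percentile at each time on both scales, and Gas5 and Snhg12 lie near the median.

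Ratios moved with the GC content of transcripts. Among coding transcripts divided into 5 equal groups by GC content, the median log2 ratio at 1.5 hr went from 1.23 in the lowest group (34.4 to 47.2% GC) to -0.43 in the highest, from -0.29 to -0.85 at 6 hr and from 0.79 to -0.69 at 24 hr. The 4 hosts with an mm9 transcript model had GC contents in or just above the lowest group, 42.3% for Gas5, 40.6% for Snhg1, 42.7% for Snhg3 and 47.3% for Snhg12. GC content was had for 66.7% of the hosts, so a check of GC content over the 6 is void, and the 4 values are given singly. Centred within 20 bins of GC content, Snhg3 stayed at least 2-fold higher at each time, with log2 ratios of 1.03, 1.38 and 1.86. Snhg1 did not, with 0.57, 0.05 and 0.39. Gas5 came to -0.90, -0.80 and -1.21, and Snhg12 to -0.27, -0.19 and -0.81, so their signs at 1.5 hr turned. The models used were the longest in the annotation. GC content over the annotated models ran from 32.4% to 52.8% for Gas5 and from 40.6% to 41.9% for Snhg1. It ran from 40.5% to 47.6% for Snhg3 and from 43.6% to 56.9% for Snhg12. Centring was not run on the other models. The Snhg1 model has 2719 bases in 2 exons of a span of 2947, and the Gas5 model 2556 of 4118. The Snhg1 model thus keeps nearly all of its span, and its GC content is not that of a fully spliced RNA. For Snhg6 and Snhg8 the part of GC content in the ratios was not tested.

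**Figure D4:**
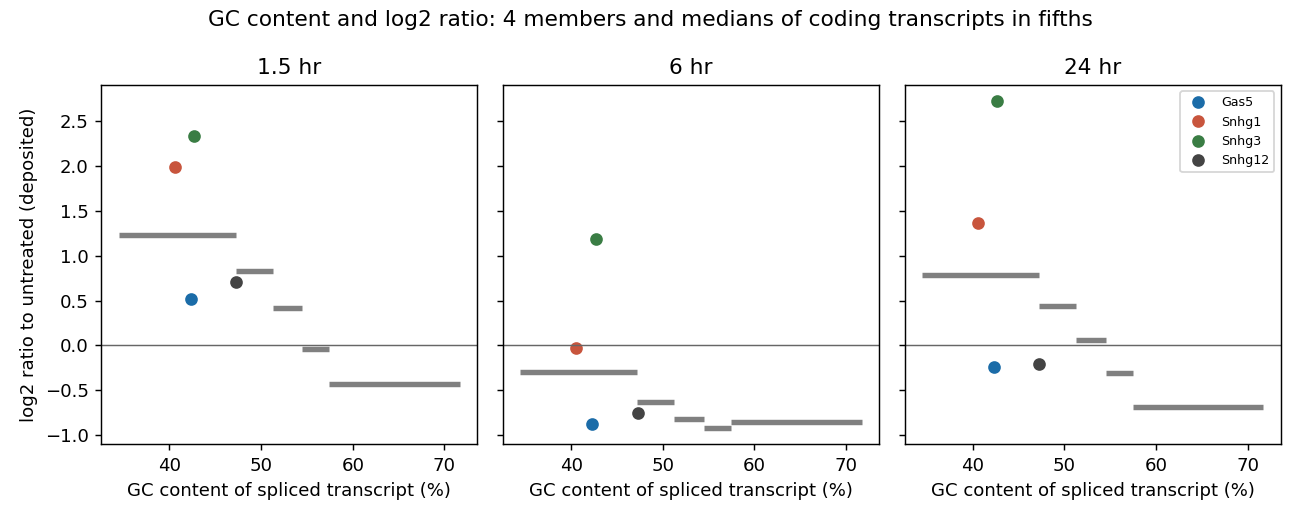
Log2 ratio to the untreated library (deposited) against the GC content of the longest annotated transcript model, for the 4 hosts with an mm9 model (points) and as medians of coding transcripts in 5 equal groups by GC content (grey bars, each as wide as its group). Snhg3 lies above the bar of its group at each time, Snhg1 lies above it by less, and Gas5 lies below it.

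The hosts were unlike one another in time course. Over the 3 scaled log2 ratios, the closest pair was Gas5 and Snhg12 (distance 0.221), the next closest Snhg3 and Snhg6 (0.948), and the furthest Gas5 and Snhg3 (4.04). Snhg3 and Snhg12, both on chr4, were 3.88 apart. By the same distance, the genes outside the group nearest to Snhg3 among 6245 were Dram1 (0.242), a membrane protein of autophagy, H2-K1 (0.354), an MHC class I heavy chain, and Tmem126a (0.444), and 1 gene lay within 0.3. Snhg1 had 116 genes within 0.3, with Lrig1 (0.050), Fam96b (0.073) and Eif4a1 (0.079), a translation helicase that itself hosts snoRNAs, as the nearest. The nearest to Snhg6 were Ptp4a1 (0.088), Prdx3 (0.10) and Gm13363 (0.122), with 14 within 0.3. Gas5 had 119 such genes, led by Alkbh5 (0.064), Llgl1 (0.084) and Brd1 (0.107). For Snhg8 they were 1810006K21Rik (0.124), Mcm5 (0.126) and Rhob (0.138), and for Snhg12 Akap12 (0.126), Cbfb (0.126) and Chst2 (0.128). The distance rests on 4 libraries and covers no replicate spread.

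Mature snoRNAs are short and carry no poly(A) tail, so libraries made from poly(A) RNA keep few of them. Entries were listed for 1 of the 9 snoRNAs in Gas5, 1 of the 8 in Snhg1 and 4 of the 4 in Snhg12. The 1 snoRNA each of Snhg6 and Snhg8 was also listed. Snord22 below thus stands for 1 of the 8 of Snhg1. Of the listed entries, 3 passed the minimum level. Snord22, inside Snhg1, was at 296.0 units untreated, then 214.7 (1.5 hr), 520.1 (6 hr) and 175.7 (24 hr), with scaled log2 ratios of -0.88, 1.62 and -0.82. In both columns it was below untreated at 1.5 and 24 hr, where its host was above, and it was highest at 6 hr. Snora44, inside Snhg12, was at 71.3, 154.8, 53.4 and 128.2 units, with scaled ratios of 0.70, 0.40 and 0.78. Its columns differed, with deposited ratios of 0.52, -0.88 and 0.30 in R1 and 1.96, 0.30 and 1.64 in R2, so in R1 it lay below Snhg12 at 1.5 and 6 hr. Snora61, inside Snhg12, was at 73.7, 233.4, 100.6 and 112.2 units, with scaled ratios of 1.24, 1.26 and 0.54, but its untreated R1 and R2 values were 137 and 10.3. Below the minimum were Snord47 of Gas5 (21.3, 72.1, 49.3 and 32.7 units), Snora24 of Snhg8 (14.4, 52.4, 4.02 and 34.5), Snora16a of Snhg12 (7.97, 28.9, 40.9 and 11.4), Snord99 of Snhg12 (32.1, 31.5, 48.6 and 29.0) and Snord87 of Snhg6 (4.67, 8.76, 0.0 and 5.16), and the snoRNAs of Snhg3 were not analysed here. Whether a snoRNA entry counted host reads is not stated.

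**Figure D5:**
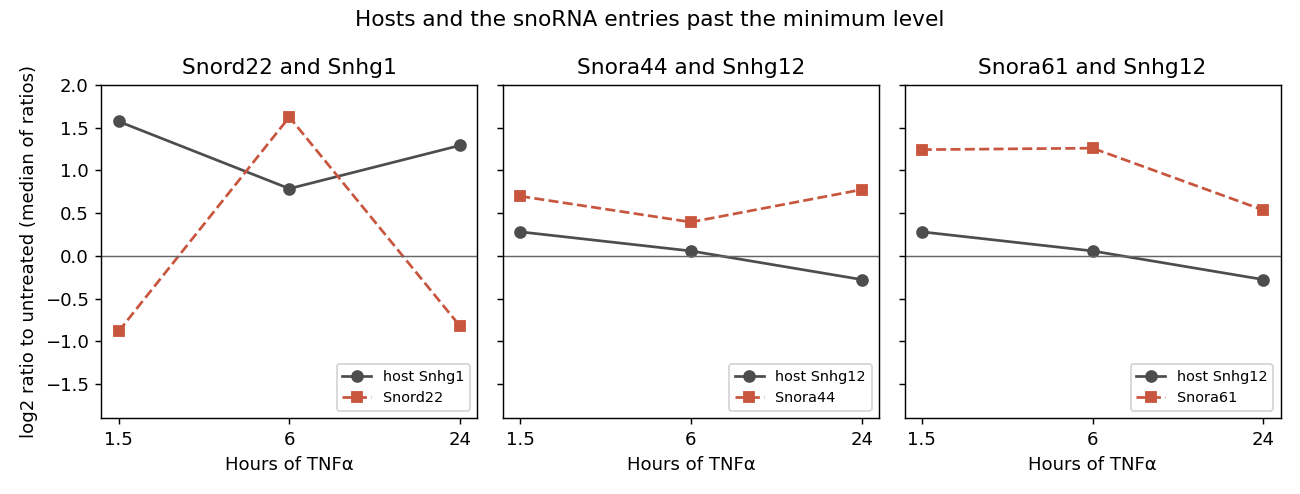
Scaled log2 ratio to the untreated library of each host (circles, solid line) and of the snoRNA entry inside it (squares, dashed line) for the 3 snoRNA entries past the minimum level, after 1.5, 6 and 24 hr of TNFα. Snord22 lies below untreated at 1.5 and 24 hr, where Snhg1 lies above it, and the means of Snora44 and Snora61 lie above Snhg12, although the columns of both snoRNAs differ widely.

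The coding genes nearest to the host starts are given for comparison, at unlike distances. Slc3a2, the heavy chain of an amino acid transporter, starts 118 bases from Snhg1 on the opposite strand and was at 853.7, 1203.7, 417.2 and 813.2 units. Its scaled log2 ratios were 0.08, -0.22 and -0.14, against 1.57, 0.79 and 1.29 for Snhg1. Rcc1, the exchange factor of Ran, starts 81 bases from Snhg3 on the same strand and was at 88.0, 188.9, 94.3 and 178.2 units, with scaled ratios of 0.68, 0.91 and 0.95 against 1.92, 2.0 and 2.65. Snhg3 lies inside the span of Rcc1 and has an antisense partner, Gm17300, so reads can be shared between them. Zbtb37, whose span on the opposite strand holds the start of the first Gas5 window, begins 248 bases from that start. It was at 15.4, 21.9, 7.77 and 18.0 units, below the minimum, and whether the counting used strand is not stated. Prss12 (3.91, 5.30, 0.213 and 2.97 units) starts 61423 bases from Snhg8 and is not a close neighbour. Rab42-ps (43.2, 12.1, 36.0 and 27.8 units) starts 5293 bases from Snhg12. Both were also below the minimum, and Mcmdc2, next to Snhg6, was not analysed here.

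Other genes of the same machinery are given from lists, with deposited values unless scaled ones are named, and their counts stand beside the shares of all tested transcripts given above. Of 37 coding snoRNA hosts, mostly ribosomal protein and translation genes, 19 were at least 2-fold higher and 2 lower at 1.5 hr, 1 and 13 at 6 hr, and 11 and 2 at 24 hr. After scaling the counts were 11 and 2, 2 and 2, and 10 and 2. As deposited, 30.3% of all tested transcripts were lower at 6 hr, and 2.34% after scaling. Their deposited median log2 ratios were 1.04, -0.78 and 0.69, against 1.69, -0.39 and 1.01 for the noncoding hosts, and their scaled medians were 0.62, 0.03 and 0.62. Centred within bins of GC content the coding hosts came to 0.19, -0.04 and 0.27. The highest ratios were Gnb2l1, the ribosomal scaffold RACK1 (2.40 at 1.5 hr), Dkc1, the pseudouridine synthase (1.43 at 6 hr), and Rpl7a (2.01 at 24 hr), and the lowest values were Rpsa (-1.31 at 1.5 hr and -1.26 at 24 hr) and Rpl37 (-2.14 at 6 hr). Of 16 other noncoding hosts, 5 were listed and 2 passed the minimum, Snhg7 (-0.11, -0.32 and -0.12) and Snhg9 (0.04, -0.87 and 0.38), with none past 2-fold.

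Of 13 snoRNP proteins and assembly factors that passed, 5 were higher and 1 lower at 1.5 hr, 2 and 1 at 6 hr, and 4 and 1 at 24 hr. After scaling the counts were 3 and 1, 3 and 0, and 4 and 1. As deposited, 29.2% and 8.79% of all tested transcripts were higher and lower at 1.5 hr, 1.85% and 30.3% at 6 hr, and 16.7% and 13.8% at 24 hr. Nhp2l1, the box C/D binding protein, had the highest ratio at 1.5 hr (2.17), Tcof1, a nucleolar factor of rRNA synthesis, at 6 hr (1.50), and Dkc1 at 24 hr (1.60). Pih1d1 had the lowest at 1.5 and 24 hr (-1.06 and -1.29) and Gar1, an H/ACA protein, at 6 hr (-1.52, or -0.71 after scaling). Of 9 nonsense-mediated decay factors that passed, 1 was higher and none lower at 1.5 hr, none higher and 3 lower at 6 hr, and 1 higher and 1 lower at 24 hr, with medians of -0.08, -0.94 and -0.31. After scaling 1 was higher and 1 lower at 1.5 and at 24 hr and none passed 2-fold at 6 hr, with medians of -0.50, -0.13 and -0.38. Upf1, the helicase of the pathway, had log2 ratios of -0.83, -1.14 and -1.49 (scaled -1.25, -0.33 and -1.56), Magoh, an exon junction complex subunit, had 2.41, -0.02 and 1.88, and Smg6, the endonuclease, was lowest at 6 hr (-1.26, or -0.45 after scaling). Of 6 TOP and growth regulators that passed, Myc was the only one higher at 1.5 and 24 hr (1.68 and 1.30, with 0.62 at 6 hr), and Eif4ebp1 was lower at 6 hr (-1.18). Both 6 hr values changed side of the 2-fold threshold with the scaling, to 1.43 for Myc, past 2-fold higher, and -0.37 for Eif4ebp1. Rptor had the lowest ratio at 1.5 hr (-0.16) and Mtor at 24 hr (-0.57). The lists were chosen with earlier results of these data known.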

How the data were processed

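For the RNA, the authors aligned paired-end directional poly(A) reads to mm9 using TopHat, and a script of their own gave the deposited RPKM values, in R1 and R2 columns for each library. Summed over 19658 coding genes, value times length in kb comes to 7.74 to 15.8 times the most that RPKM allows in a library. The scale thus holds a factor that is not stated and is not shown to be the same in each library. The depth behind a value is unknown. Columns were tied to times by the library names of the study. One label field of the 24 hr library gives a ChIP protocol, but its other fields describe RNA-seq. For the ChIP, the authors aligned reads with Bowtie, and MACS called peaks on 1 ChIP and 1 input library. The deposited peak list holds, for each peak, the tag count, a score from the log of its p-value, a fold enrichment ratio and an FDR in percent.

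R1 and R2 were averaged, and the log2 ratio to the untreated library was taken with no pseudocount. Tested transcripts had a mean over the 8 columns of at least 100 deposited units, and called means at least 2-fold. The members and gene lists were chosen with earlier results of these data known. Named were all 6 hosts, the largest and smallest listed gene per list and time, the snoRNAs inside hosts, the nearest coding neighbour, and the 3 genes with the most similar ratios. The 6 hr value of Upf1 was added after the values were seen. Promoter sequences came from RefSeq (GRCm38.p6), and gene spans from GENCODE on mm9. No test was run with 1 library per time. Ratios, scaling and 2-fold calls were tested on simulated data with fewer changed transcripts than these data and no trend with GC content. The promoter, peak, snoRNA, GC content and distance steps were not simulated. Alternatives were other scalings, pseudocounts, thresholds, columns and filters, and centring within bins of GC content or length. Python with numpy and pandas was used.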

Additional observations from a re-analysis of the deposited data

Results flagged for a closer look

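Both columns of some hosts lay on opposite sides of the untreated library at different times. The differences between times were not tested, since each time has 1 library. The log2 ratio at 1.5 hr minus that at 6 hr was 1.39 for Gas5, 2.02 for Snhg1, 2.47 for Snhg8 and 1.46 for Snhg12. The log2 ratio at 1.5 hr minus that at 24 hr was 0.76 for Gas5 and 0.91 for Snhg12. The log2 ratio at 6 hr minus that at 24 hr was -1.39 for Snhg1 and -1.75 for Snhg8. These are deposited ratios and hold the shift of the whole libraries. The scaled values that follow are those of the mean of R1 and R2, and their sides are those of the mean alone. The columns were not scaled singly, so whether both columns keep their sides after scaling is not shown. After median of ratios scaling, the values at 1.5 and 6 hr were 0.10 and -0.06 for Gas5, 1.57 and 0.79 for Snhg1, 0.97 and -0.27 for Snhg8 and 0.28 and 0.06 for Snhg12, so Snhg1 and Snhg12 no longer lay on opposite sides at these times. The scaled values at 1.5 and 24 hr were 0.10 and -0.31 for Gas5 and 0.28 and -0.28 for Snhg12, still on opposite sides. At 6 and 24 hr they were -0.27 and 0.59 for Snhg8, still on opposite sides, and 0.79 and 1.29 for Snhg1, on the same side.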

How the results depend on the processing

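No paired analysis was possible because each time has 1 library. The count of hosts at least 2-fold higher at 6 hr was 1 as deposited and 2 under scaling to the sum, both medians of ratios, the trimmed mean, the R2 column alone and a 1.5-fold threshold, and 0 with a pseudocount of 100 or a 3-fold threshold. The count lower at 6 hr was 1 as deposited, 3 at 1.5-fold, and 0 under those 4 scalings, a pseudocount of 100, the R1 column alone or 3-fold. The median log2 ratio at 1.5 hr was 1.69 as deposited, 1.44 scaled to the sum, 1.27 and 1.26 with medians of ratios over all or coding transcripts, 1.29 with the trimmed mean and 1.33 with a pseudocount of 100. At 6 hr it was -0.39 as deposited and 0.44, 0.42, 0.42 and 0.33 under the same 4 scalings. At 24 hr it was 1.01, and 0.76 with a pseudocount of 100. Counts at 1.5 and 24 hr stayed within 1.5 times of the reported ones under every alternative run, and the 5 starts with a peak stayed at 5 under each peak setting. A value counted as moved beyond the difference of the columns from their mean. Centring within bins of GC content or length was not run over the 6 hosts, since 66.7% had a model. Summing transcripts changed nothing, since each host has 1. The scalings of the background shares were added after seeing the data. The cause of these changes was not tested.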
